A study of Mus musculus with 32 samples.

Results

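Loss of Cpt1a was examined in sorted mouse intestinal stem cells on the control diet, by comparing the 4 Cpt1a-deficient libraries of that diet with the 4 wild-type ones across all expressed genes. These 8 libraries were chosen by their group among 32 in the series, which has 8 groups of 4 libraries (2 genotypes, 2 diets and 2 sorted populations). The wild-type mice carried the drivers Villin-CreER and Lgr5-GFP-IRES-CreER. The deficient mice carried Cpt1afl/fl with those same drivers, so both genotypes held an inducible Cre, expressed from Villin in the intestinal epithelium and from Lgr5 in crypt base stem cells. All mice were C57BL6, and the diet of the 8 libraries is named High Fat Control, the counterpart of the series' high-fat diet. The labels assign 2 female and 2 male samples to each group, but the columns of the tables do not show which library is which, so the 4 libraries of a group carry the letters a to d by column order. Age, time on diet and induction of the Cre were not given in the sources used here. Crypts were dissociated and sorted for bright Lgr5-eGFP, EpCAM and low or no CD24, without CD31, Ter119, CD45 and the dead-cell dye 7AAD, and polyA RNA was sequenced. No label says that the libraries came from separate animals, and if they did not, p-values measure only a spread that may be technical.

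Cpt1a encodes the carnitine palmitoyltransferase of the outer mitochondrial membrane. It joins long-chain fatty acids to carnitine, the step that admits them to mitochondria, and malonyl-CoA inhibits it. Inside, the acylcarnitine carrier and Cpt2 restore the acyl-CoA, which beta-oxidation shortens to acetyl-CoA. Fatty acids are also ligands of the PPAR nuclear receptors, which bind DNA as pairs with RXR and activate many genes of fat oxidation. Intestinal stem cells are known to use fatty acid oxidation.

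Few genes were called between the genotypes, and most of those called were genes of fat use with higher levels after the deletion. With the quasi-likelihood test of edgeR and Benjamini-Hochberg adjustment at 0.05, 30 of 12409 tested genes were called (0.242%), and a call below is one by this fit unless another tool is named. Of these, 27 were higher in deficient cells (0.218% of tested genes) and 3 were lower (0.0242%). Of the higher genes 17 belonged to a list of fat metabolism genes. Such lists held 8 to 29 tested genes each, and the share of all tested genes in them was not counted. The lists were chosen with earlier results of these data known, so counts by list are descriptions and not tests. In all 30 the 4 libraries of a genotype lay entirely on one side of the other 4. The calls were made on these same libraries, so this separation follows in part from the selection and is not further support. Over all tested genes, 2.08% had every deficient library above every wild-type one and 1.87% had them all below. The median log2 fold change of all tested genes was -0.00058, and 49.8% were positive. At an unadjusted p under 0.05 there were 587 genes (4.73%). With the 4 runs of 8 consecutive columns as a block, edgeR called 20 genes higher and 4 lower, and 7 of the 30 lost their call. DESeq2 called 60 genes, 46 higher and 14 lower. The count depended on single libraries: it was 16, 14 and 15 without wild-type library a, c or d, 17 and 15 without deficient library a or b, and 33 without deficient library c. Called in each of the 8 fits without 1 library were 13 of the 30, among them Cpt1a, Hsdl2, Hadha, Hadhb, Creb3l3, Acadl, Eci2, Acaa2, Acot4, Slc25a20, Slc22a3 and BC064078, and the other 17 lost their call in at least 1 of them. Nceh1 was called in none of the 8, and Ddhd2, Etfb, Cpt2, Ugt1a1 and Tm4sf4 in 1.

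**Figure D1:**
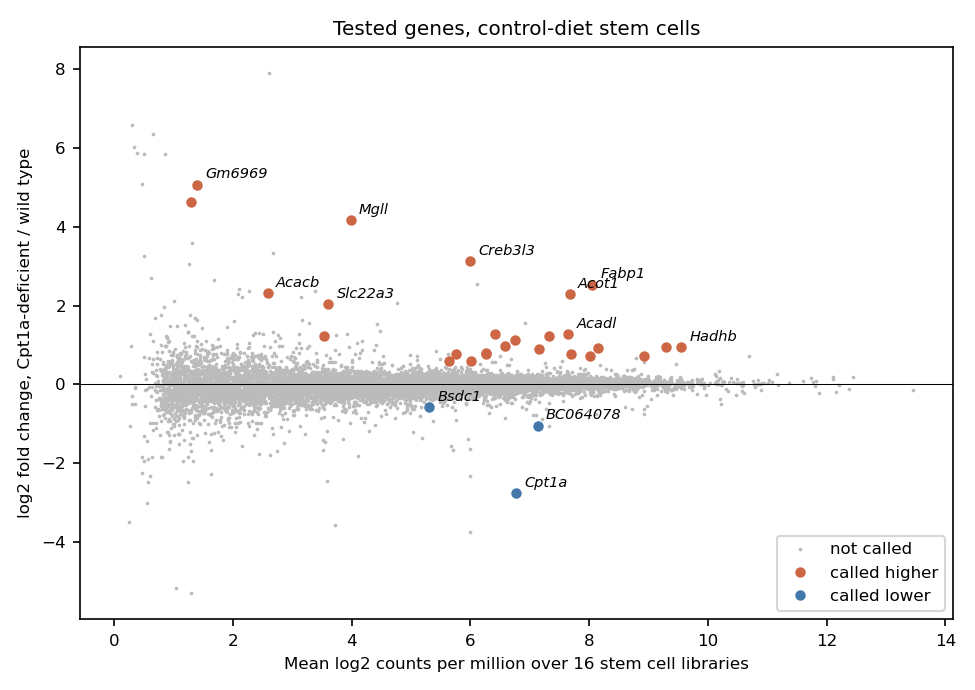
Log2 fold change of Cpt1a-deficient over wild-type stem cells on the control diet against mean log2 CPM, 1 point per gene, with a few tested genes not drawn. The genes called higher (orange, 1 of the 27 not drawn) include Creb3l3 at 3.12 and Mgll at 4.17, and the 3 called lower (blue) are Cpt1a, BC064078 and Bsdc1.

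Short promoter stretches are shown for 3 of the higher genes because each holds a match to the paired half-site that PPAR and RXR receptors are known to bind. Promoters from RefSeq (GRCm38.p6, 250 bases before to 50 after the start) were searched on both strands for a direct repeat of AGGTCA with 1 base of any kind between, with at most 2 mismatches over the 12 fixed letters. Capitals mark the match, and each stretch reads along the strand of its gene.
Fabp1, chr6:71199788-71199848, 1 mismatch, match on the opposite strand: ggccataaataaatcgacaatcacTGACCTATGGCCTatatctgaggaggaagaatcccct
Acot4, chr12:84038342-84038378, 2 mismatches, match on the opposite strand: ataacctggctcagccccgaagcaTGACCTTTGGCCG
Creb3l3, chr10:81092764-81092824, 2 mismatches, match on the strand of the gene: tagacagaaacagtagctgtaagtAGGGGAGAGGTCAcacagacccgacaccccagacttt
The Fabp1 match begins 67 bases before the RefSeq start, which lies 52 bases inside the GENCODE M21 one. In Acot4 it lies directly before the start, at 13 bases. The Creb3l3 match begins 209 bases before an internal RefSeq start, 6283 bases inside the gene from its GENCODE start, and the promoter at the outer start held no match. Slc25a20 also held a match, past its start. Of the 27 higher genes 21 had a promoter entry, and 4 of these held a match in at least 1 entry (19.0%). Among all tested genes with an entry 356 of 9254 did (3.85%), and among the tested PPAR targets 5 of 37 (13.5%). With only the entry nearest the GENCODE start of each gene, a count added after the first was seen, 3 of the 21 held a match (14.3%) and 298 of the 9254 did (3.22%). A match is a description of the letters and not a measured site.

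The targeted gene checked the labels. Cpt1a (ENSMUSG00000024900, chr19:3322334-3385733 in GENCODE M21 on GRCm38) stood at 126, 159, 166 and 203 CPM (counts per 1e+06, scaled by TMM) in wild-type libraries a to d. In deficient libraries a to d it stood at 23.7, 24.9, 23.8 and 24.2 CPM. The deficient values lay close together and far below all wild-type values, at 14.8% of the wild-type mean, and the log2 fold change was -2.76 ± 0.14 (SE, 4 libraries per genotype, adjusted p = 1.64e-09). Counts over the whole gene do not separate intact transcripts from those without the floxed part. The other Cpt1 genes were near 0, with Cpt1b and Cpt1c at no more than 0.771 CPM in any of the 8 libraries, and neither was tested.

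Markers of the sort were present in both genotypes. Lgr5, the Wnt-linked receptor that marks crypt base stem cells, lay between 458 and 502 CPM in wild type and between 390.3 and 517 CPM in deficient cells. Its ranges overlapped, and the log2 fold change was -0.10 with a 95% interval of -0.47 to 0.26. Epcam lay between 2174 and 2497 CPM in the 8 libraries. Ptprc, the gene of CD45, and Pecam1, the gene of CD31, reached at most 0.199 and 0.211 CPM. Total counts ran from 4674160 to 6027301 in the 8 libraries, and replicate libraries correlated at 0.968 to 0.980 in log2 CPM. Deficient library b was the highest of its group for 19 of the 27 higher genes, and deficient library c was the lowest for 18.

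Genes of the carnitine shuttle were called at the deleted step and at the steps that follow it. Of 8 tested members 2 were higher and 1, Cpt1a, was lower, with a list median of 0.13. Slc25a20, the carrier of acylcarnitines across the inner membrane, stood at 52.3, 47.8, 54.4 and 60.5 CPM in wild-type libraries and at 129, 131, 100.4 and 112 CPM in deficient ones. It rose 2.20-fold (log2 fold change 1.14 ± 0.16 SE, 4 libraries per genotype, adjusted p = 0.00246). Cpt2, which returns the fatty acid from carnitine to CoA on the matrix side, stood at 147, 107, 150.5 and 135 CPM in wild type and at 261, 228, 188 and 240.0 CPM in deficient cells (0.77 ± 0.15, adjusted p = 0.0361). All deficient values of both genes lay above all wild-type values. The adjusted p of Cpt2 was 0.0934 with the column runs as a block and 0.0893 by limma on the log2 TPM values. Crot, which moves shortened chains from CoA to carnitine in peroxisomes, was at 0.44 ± 0.11 (edgeR adjusted p = 0.207) and was called by DESeq2. The carnitine transporter gene Slc22a5 was at -0.12 with a 95% interval of -0.51 to 0.26, and Crat at 0.20 with an interval of -0.14 to 0.54.

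Among mitochondrial beta-oxidation genes, Acadl, Acadvl and the genes of the trifunctional protein of long chains were among those that rose. Of 20 tested members 7 were higher and none was lower (35.0% called higher, beside 0.218% of all tested genes), and the median was 0.23. Acadl and Acadvl encode dehydrogenases of long chains. The other acyl-CoA dehydrogenase genes Acad9, Acad10, Acad11 and Acad12 were tested in this list and not called. Acadl stood at 64.2, 86.1, 103 and 81.1 CPM in wild type and at 216, 248, 182 and 165 CPM in deficient cells (2.43-fold, 1.28 ± 0.17, adjusted p = 0.00144). Acadvl, for very long chains, stood at 301, 287, 266 and 267 CPM in wild type and at 485, 508, 369.9 and 483 CPM in deficient cells (0.72 ± 0.13, adjusted p = 0.015). No library of either gene crossed into the range of the other genotype.

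The dehydrogenase genes of shorter chains did not pass. Acadm, for medium chains, stood at 154, 139, 132 and 155 CPM in wild type and at 152, 128, 145 and 166 CPM in deficient cells. Its ranges overlapped, and the 95% interval of its log2 fold change was -0.18 to 0.23. Acads, for short chains, averaged 36.3 ± 2.37 and 36.3 ± 3.63 CPM (SD, n = 4 and 4), with an interval of -0.26 to 0.25. Hadh, the hydroxyacyl-CoA dehydrogenase of shorter chains, had an interval of -0.14 to 0.32. These upper bounds lie below the lower bounds of the intervals of Acadl (0.92) and Acadvl (0.45), though the differences between genes were not tested. Whether the whole list divides by chain length was not tested either.

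Hadha and Hadhb encode the 2 subunits of the trifunctional protein, which carries out the remaining steps on long chains. Hadha stood at 80.2, 83.3, 84.6 and 84.7 CPM in wild type and at 151, 179.5, 151 and 144 CPM in deficient cells (0.91 ± 0.09, adjusted p = 2.21e-05). Hadhb stood at 394, 366, 394 and 434 CPM in wild type and at 797, 786, 680.2 and 802 CPM in deficient cells (0.95 ± 0.12, adjusted p = 0.000351). The wild-type values of Hadha lay close together, and the folds of the pair were 1.88 and 1.93. The genes start back to back on chromosome 5 with 85 bases between their annotated starts. That interval is shown because both genes rose by nearly the same factor, and 69% of its bases are G or C.
Hadha and Hadhb, chr5:30155163-30155247 (GRCm38.p6, plus strand): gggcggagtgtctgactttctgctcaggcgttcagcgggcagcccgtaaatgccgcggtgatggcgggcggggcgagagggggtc

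The other called genes of the list act on chain ends, double bonds and electrons. Acaa2, a thiolase that releases acetyl-CoA, averaged 342 ± 26.9 CPM in wild type and 659 ± 70.5 CPM in deficient cells (SD, n = 4 and 4; 0.94 ± 0.14 SE, adjusted p = 0.00246). Eci2, an isomerase that prepares unsaturated chains, stood at 63.5, 63.9, 82.1 and 79.3 CPM in wild type and at 177, 201, 139.6 and 160.2 CPM in deficient cells (1.23 ± 0.18, adjusted p = 0.00246). Etfb, a subunit of the flavoprotein that takes the electrons of the dehydrogenases, rose from 166 ± 7.74 to 273 ± 31.0 CPM (0.72 ± 0.14, adjusted p = 0.0343). Its partner subunit gene Etfa (0.38 ± 0.11, adjusted p = 0.481) and the next carrier's gene Etfdh (0.39 ± 0.13, adjusted p = 0.678) did not pass, although all deficient libraries lay above all wild-type ones for both. Decr1, another enzyme for unsaturated chains, was at 0.30 ± 0.11 (adjusted p = 0.753). A transcript of Etfb is 99.7% identical to one of Gm45233 over 626 bases, and one of Eci2 is 95.9% identical to Gm15287 over 612 bases. Reads of Etfb and Eci2 may therefore be divided with these genes.

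**Figure D2:**
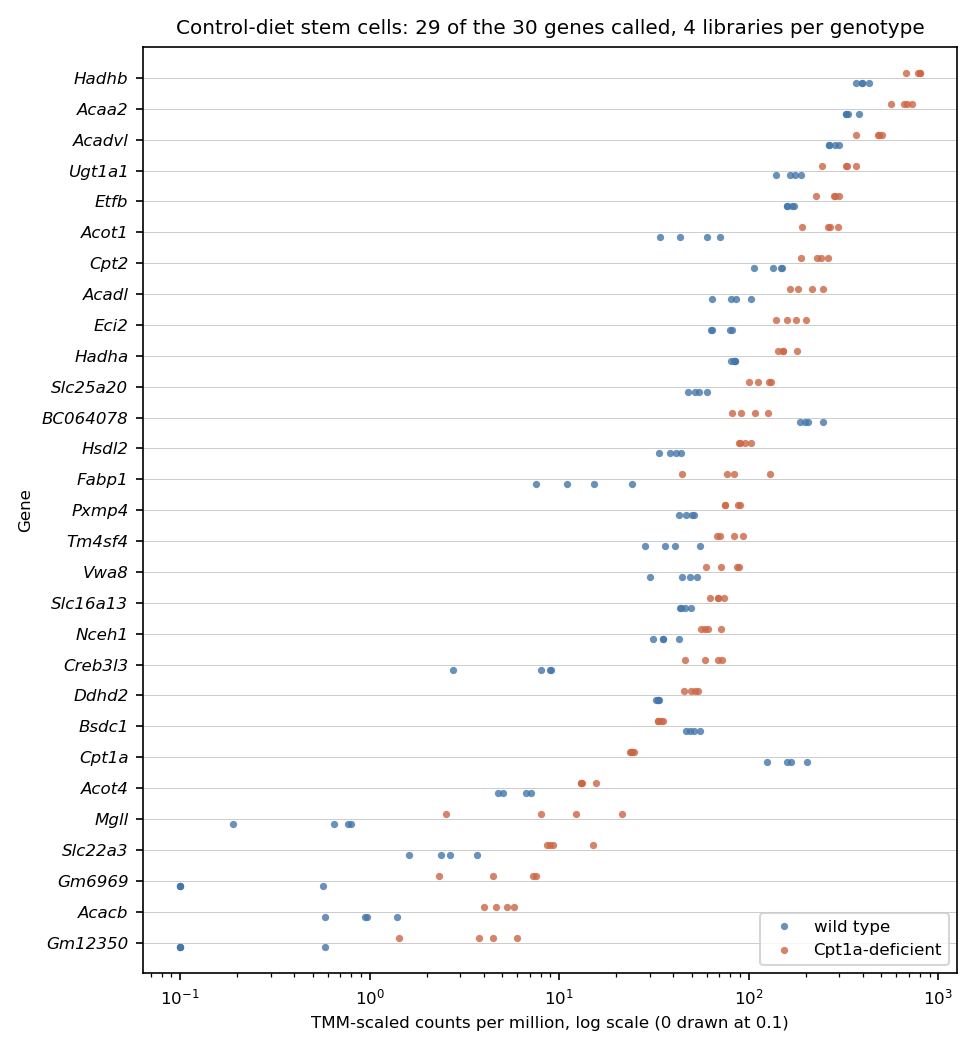
TMM-scaled CPM on a log axis for 29 of the 30 called genes, with 1 point per library and 4 libraries per genotype. For each gene the wild-type (blue) and deficient (orange) points do not overlap.

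Oxct1, the enzyme that lets cells use ketone bodies, stood at 125, 122, 136 and 152 CPM in wild type and at 105, 88.8, 102 and 91.0 CPM in deficient cells. Its deficient libraries lay below the wild-type ones, but edgeR did not call it (-0.47 ± 0.12, adjusted p = 0.195), while DESeq2 and limma did.

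Peroxisomes oxidise very long and branched chains. Of 29 tested genes of this list 1 was higher (3.45%, beside 0.218% of all tested genes), none was lower and the median was 0.13. Pxmp4, a peroxisomal membrane protein, rose from 47.8 ± 3.80 to 81.8 ± 7.98 CPM (SD, n = 4 and 4; 0.77 ± 0.14 SE, adjusted p = 0.0253), with an adjusted p of 0.0714 under the column block. In 9 of the 29 genes all deficient libraries lay above all wild-type ones, beside 2.08% of all tested genes. The list's enoyl-CoA isomerase gene Ech1 missed the threshold narrowly by edgeR and passed by DESeq2, at 287, 287, 241 and 276 CPM in wild type and 458, 490.1, 355 and 430.3 CPM in deficient cells (0.67 ± 0.14, adjusted p = 0.0545). Pex11a, of peroxisome division, was at 0.62 ± 0.18 (adjusted p = 0.384). The acyl-CoA transporter gene Abcd3 was at 0.37 ± 0.09 (adjusted p = 0.205, called by DESeq2) and the thiolase gene Acaa1a at 0.40 ± 0.11 (adjusted p = 0.276). Ehhadh, which carries out middle steps and is a classic PPAR alpha target in liver, had overlapping libraries, with a 95% interval of -0.23 to 0.21.

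Acyl-CoA thioesterases split fatty acids from CoA. Of 10 tested genes 2 were higher, and the median was 0.25. Acot1 stood at 70.8, 34.0, 60.4 and 43.4 CPM in wild type and at 297, 264, 192 and 268 CPM in deficient cells (4.90-fold, 2.29 ± 0.35, adjusted p = 0.0136, and 0.0861 with the column block). Acot4 rose from 5.90 ± 1.17 to 13.7 ± 1.24 CPM (SD, n = 4 and 4; 1.22 ± 0.18 SE, adjusted p = 0.00246), but by limma on the log2 TPM values it did not pass (adjusted p = 0.234). The mitochondrial member Acot2 stood at 9.84, 7.13, 11.2 and 12.2 CPM in wild type and at 25.7, 32.9, 23.2 and 21.4 CPM in deficient cells (1.36 ± 0.30, edgeR adjusted p = 0.0961), and DESeq2 called it. Acot1 and Acot4 lie 20007 bases apart on chromosome 12. The transcripts of Acot1 and Acot2 are 95.8% identical over 826 bases, and Acot4 shares sequence with Acot6 and with an antisense gene, so estimated counts may be divided among them and these values are uncertain.

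Fatty acid binding, lipid breakdown and their control gave 1 called gene per list. That was 4.35% to 7.14% of the tested members of a list, beside 0.218% of all tested genes called higher. Creb3l3, a membrane-bound transcription factor of liver and intestine that acts in lipid metabolism, stood at 9.06, 2.76, 7.98 and 8.96 CPM in wild type and at 68.8, 59.1, 46.0 and 72.7 CPM in deficient cells. It rose 8.69-fold (3.12 ± 0.32, adjusted p = 0.000164) and was the 1 called gene of 14 in the list of chylomicron assembly, whose median was 0.06. Fabp1, the liver-type fatty acid binding protein, stood at 7.52, 15.2, 11.02 and 24.1 CPM in wild type and at 76.8, 129.7, 44.3 and 83.2 CPM in deficient cells (5.79-fold, 2.53 ± 0.43, adjusted p = 0.0261). The genotypes did not overlap for Fabp1, but its call was lost with the column block (adjusted p = 0.0934) in a fit of the 8 libraries alone (0.186) and without a filter on low counts (0.0628). The other 22 tested genes of uptake, binding and activation did not pass, and the list median was 0.01.

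Fabp1 is also a marker of enterocytes, the absorptive cells. Of 25 tested enterocyte markers it was the only one called (4.0%, beside 0.218% of all tested genes called higher), and their median was -0.09. Their summed level ranged from 2261 to 2886 CPM in wild type and from 2338 to 2609 CPM in deficient cells. In sorted bulk samples a change in the number of cells of a type and a change in RNA per cell cannot be told apart.

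Mgll, which splits monoglycerides into fatty acid and glycerol, was low in wild type at 0.771, 0.649, 0.190 and 0.797 CPM. In deficient libraries it stood at 12.3, 21.4, 2.53 and 8.02 CPM, all higher but spread widely from library c to library b (4.17 ± 0.73, adjusted p = 0.0261, and 0.0934 with the column block). It was not called in the fit of the 8 libraries alone (adjusted p = 0.0782) or without a filter on low counts (0.0918). It was the only one called of 18 lipid droplet genes, whose median was 0.02. Plin2, a coat protein of lipid droplets, had a 95% interval of -0.05 to 0.34.

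Acacb makes malonyl-CoA at the mitochondrion, the inhibitor of Cpt1 enzymes. It stood at 0.579, 0.973, 0.950 and 1.39 CPM in wild type and at 5.31, 5.81, 4.01 and 4.66 CPM in deficient cells (5.01-fold, 2.33 ± 0.39, adjusted p = 0.0124). Its length-corrected values differed less, at means of 0.628 and 0.953 TPM, and limma on the log2 TPM values gave an adjusted p of 0.9999. It was the only called gene of 20 in fatty acid synthesis and desaturation (5.0%, beside 0.218% of all tested genes called higher). The median of that list was -0.03. The desaturase gene Scd2 stood at 108, 151, 94.6 and 56.4 CPM in wild type and at 32.1, 38.03, 37.7 and 31.3 CPM in deficient cells, without overlap, but the wild-type spread was wide and it did not pass (-1.56 ± 0.43, adjusted p = 0.389). Of 20 genes in omega-oxidation and retinoid handling edgeR called none, with 3 at an unadjusted p under 0.05, and DESeq2 called 1, the retinol saturase gene Retsat (0.60 ± 0.15 by edgeR, adjusted p = 0.199).

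The list of PPAR target genes shares 41 of its 50 genes with the fat lists. Of its 46 tested members 14 were higher (30.4%, beside 0.218% of all tested genes) and 1, Cpt1a, was lower. Their median was 0.56, beside -0.00058 for all tested genes, and 38 of the 46 were positive. The calls included many of those named above for oxidation and lipid handling, with Hsdl2 in addition. Etfb, Pxmp4, Acot4 and Acacb, also called above, are not members of this list. Hsdl2, which encodes a dehydrogenase-like protein, stood at 43.8, 33.6, 38.4 and 41.4 CPM in wild type and at 96.2, 103, 89.0 and 90.2 CPM in deficient cells (1.27 ± 0.12, adjusted p = 1.93e-05). DESeq2 called 18 of the 46 higher. Other known targets were apart by library but did not pass by edgeR. Pdk4, a kinase that restrains pyruvate oxidation, stood at 28.2, 7.13, 21.5 and 14.5 CPM in wild type and at 84.6, 137, 76.5 and 117 CPM in deficient cells (2.55 ± 0.63, edgeR adjusted p = 0.273), and DESeq2 called it. Angptl4, a secreted inhibitor of lipoprotein lipase, stood at 95.5, 17.2, 98.4 and 33.5 CPM in wild type and at 182, 180.3, 143 and 211 CPM in deficient cells (1.56 ± 0.59, adjusted p = 0.843). In both genes wild-type libraries a and c were the high ones of their group. The malic enzyme gene Me1 had overlapping libraries (0.79 ± 0.35, adjusted p = 0.9998).

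The receptor genes themselves gave no call. Of 23 tested PPAR receptors, partners and coregulators edgeR called none, with 0 at an unadjusted p under 0.05, and DESeq2 called none (median -0.01). Ppara stood at 26.8, 16.2, 21.9 and 16.7 CPM in wild type and at 24.9, 21.9, 17.1 and 24.6 CPM in deficient cells, with a 95% interval of -0.43 to 0.67. Ppard averaged 2.30 and 2.10 CPM with an interval of -0.94 to 0.70, and Pparg 11.3 CPM in both genotypes with an interval of -0.55 to 0.56. Hnf4a, a nuclear receptor of the gut epithelium, had an interval of -0.16 to 0.27.

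**Figure D3:**
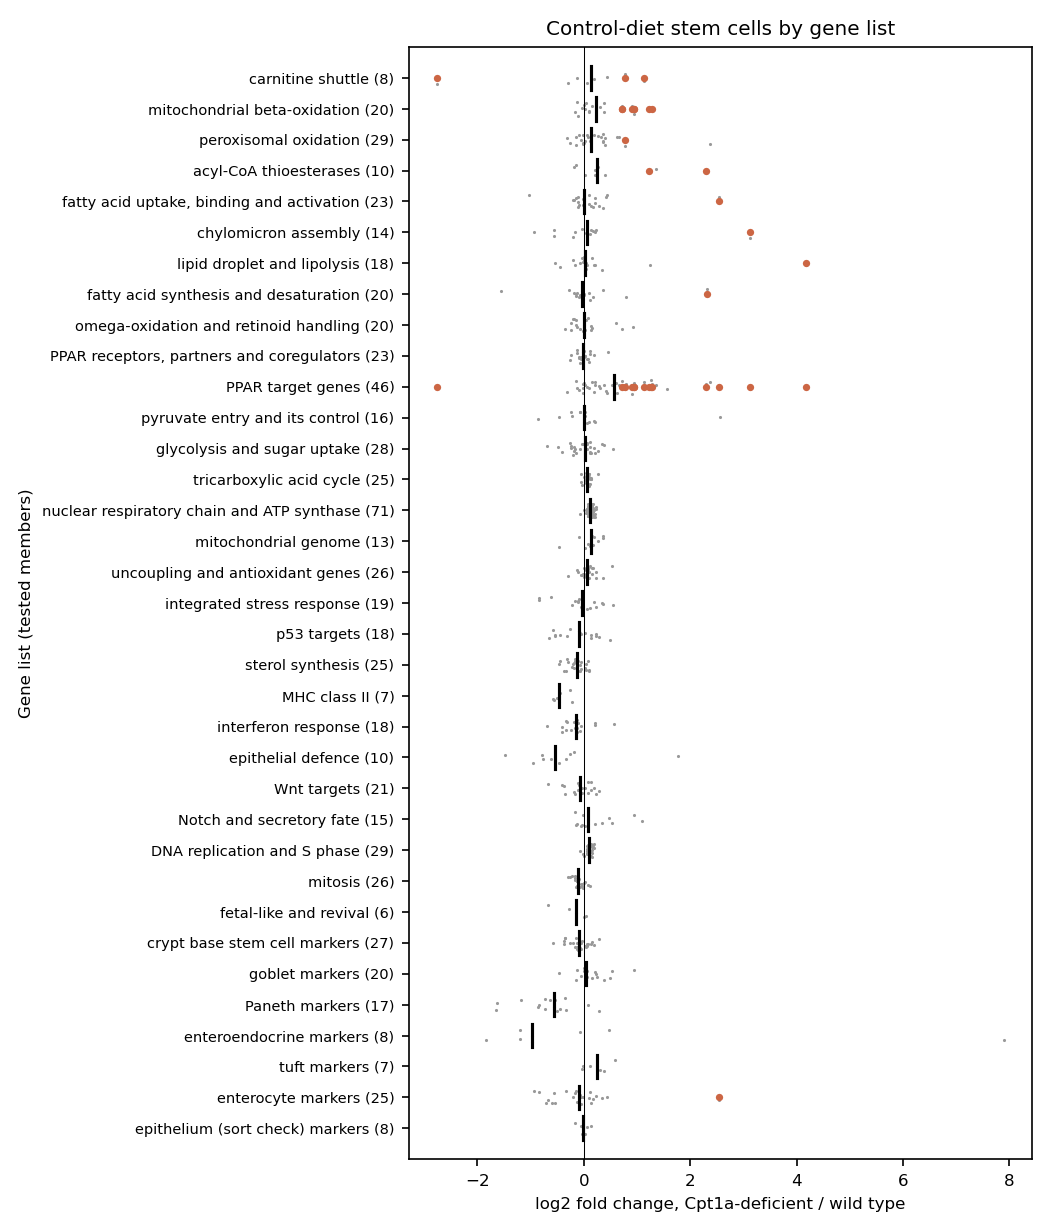
Log2 fold change of Cpt1a-deficient over wild-type stem cells on the control diet for the tested members of the gene lists (grey points, number tested in brackets, a few members not drawn), with called genes in orange and the list median as a black bar. Genes called by edgeR lie in the lists of fat use and in the overlapping PPAR target and enterocyte lists. DESeq2 also called Pcx, Pdk4, Pmaip1 and Nos2 in the lists of pyruvate entry, p53 targets and epithelial defence.

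Of the 27 higher genes 9 stood in neither the fat nor the PPAR target lists. Slc22a3, an organic cation transporter, stood at 3.67, 1.62, 2.66 and 2.39 CPM in wild type and at 8.99, 15.1, 8.64 and 9.32 CPM in deficient cells (4.10-fold, 2.04 ± 0.30, adjusted p = 0.00272). Slc16a13, of the monocarboxylate transporter family, rose from 45.7 ± 2.99 to 68.7 ± 4.62 CPM (SD, n = 4 and 4; adjusted p = 0.0168, and 0.164 by limma). Among hydrolases of lipid esters, Ddhd2 rose from 33.0 ± 0.431 to 50.1 ± 3.72 CPM (adjusted p = 0.0261) and Nceh1 from 36.2 ± 4.87 to 61.8 ± 6.76 CPM (adjusted p = 0.0357, and 0.760 by limma). Vwa8, a mitochondrial ATPase, rose from 44.3 ± 10.1 to 76.5 ± 14.02 CPM (adjusted p = 0.0336, but 0.227 in the fit of the 8 libraries alone and 0.306 by limma). Ugt1a1, which conjugates bilirubin, rose from 167 ± 21.2 to 317 ± 52.2 CPM (adjusted p = 0.0377, but 0.143 with the column block and 0.169 without a filter on low counts). It shares its last exons with the other Ugt1a genes, so reads may be divided among them. Tm4sf4, a membrane protein of the epithelium, rose from 40.2 ± 11.3 to 79.0 ± 11.7 CPM (adjusted p = 0.0483, and 0.0934 with the column block). It was not called in 7 of 10 other settings, among them the Xist level as a covariate (adjusted p = 0.0653), limma (0.0807) and the 8 libraries alone (0.101).

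The last 2 higher genes are processed pseudogenes and are uncertain. Gm6969 is 97.9% identical over 342 bases to Cox7a2l, a gene of the respiratory chain, and held 3 counts over the 4 wild-type libraries and 114 over the 4 deficient ones. The ratio of these sums, each scaled by the TMM library sizes of its group, was 39.1, with an exact 95% interval of 13.1 to 192 for counting error only. Gm12350 is 98.9% identical over 462 bases to Chchd2, and held 3 and 85 counts (ratio scaled in the same way 29.2, interval 9.65 to 144). In each the 3 wild-type counts came from a single library, and Gm6969 was not called in the fit of all 32 libraries (edgeR adjusted p = 0.0976). The rise of Gm12350 was not seen elsewhere, with 0.18 ± 0.57 in high-fat stem cells and -0.05 ± 0.54 in control-diet progenitors. Its differences from control-diet stem cells did not pass (edgeR adjusted p = 0.9991 for the diets and 0.443 for the populations). Gm6969 was at 3.03 ± 0.76 and 4.54 ± 1.20 in the same order. The parent genes did not pass, with Cox7a2l at -0.07 ± 0.12 and Chchd2 at 0.20 ± 0.13. Reads of a parent and its copy cannot be separated with certainty.

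By edgeR 3 genes fell, and DESeq2 called 14 lower. Besides Cpt1a, BC064078, a transcribed pseudogene on chromosome 6, stood at 198, 187, 205 and 246 CPM in wild type and at 126, 91.3, 108 and 81.7 CPM in deficient cells (-1.04 ± 0.15, adjusted p = 0.00196). Bsdc1 stood at 51.5, 46.9, 49.2 and 55.6 CPM in wild type and at 35.3, 33.2, 34.4 and 33.4 CPM in deficient cells (-0.58 ± 0.10, adjusted p = 0.0168). Bsdc1 did not pass by limma on the log2 TPM values (adjusted p = 0.421) or in the fit of all 32 libraries (0.0846). Pcx and Pmaip1 were lower in value and missed the threshold by edgeR, while DESeq2 called both. Pcx, the pyruvate carboxylase that feeds oxaloacetate to the citrate cycle, stood at 24.9, 18.2, 25.5 and 27.7 CPM in wild type and at 16.1, 11.6, 12.4 and 12.9 CPM in deficient cells (-0.86 ± 0.19, adjusted p = 0.0824). Pmaip1, a pro-apoptotic p53 target, averaged 43.0 and 28.7 CPM (-0.58 ± 0.13, adjusted p = 0.0818).

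Genes of central energy metabolism gave no calls by edgeR. Of 71 tested nuclear respiratory chain and ATP synthase genes none was called by edgeR or DESeq2, 0 had an unadjusted p under 0.05 and 70 were positive, with log2 fold changes from -0.07 to 0.24 and a median of 0.12. Summed over the list, wild-type libraries held 21280 to 22950 CPM, and the deficient range of 20900 to 25760 CPM overlapped it. Uqcrc1, a subunit of complex III, was at 0.15 ± 0.09 with adjusted p = 0.9998. The tricarboxylic acid cycle (25 genes, median 0.06), glycolysis and sugar uptake (28, median 0.02), pyruvate entry (16, median 0.01) and the mitochondrial genome (13, median 0.14) had none called by edgeR, with 1, 3, 2 and 1 genes at an unadjusted p under 0.05. DESeq2 called none of these either except Pcx and Pdk4 of the pyruvate entry list. The uncoupling protein gene Ucp2 stood at 476, 561, 477 and 453 CPM in wild type and at 772, 991, 540.4 and 521 CPM in deficient cells, with the high values in libraries a and b (0.52 ± 0.19, adjusted p = 0.746). The peroxisomal catalase gene Cat was at 0.36 ± 0.12 (adjusted p = 0.691).

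Stem cell identity and proliferation genes gave no calls by edgeR or DESeq2. Of 27 tested crypt base stem cell markers 5 had an unadjusted p under 0.05, all of them lower, beside 4.73% of all tested genes. In this list 18 of the 27 were negative and the median was -0.08. Prom1 was at -0.38 ± 0.13 (adjusted p = 0.692) and the Ephrin receptor gene Ephb3 at -0.38 ± 0.14 (adjusted p = 0.837). Of 21 Wnt targets 3 had an unadjusted p under 0.05, all of them lower, and 13 of the 21 were negative (median -0.07). The Wnt list shares genes with the marker list, such as Lgr5 and Ephb3. Of 29 S phase genes 26 were positive and of 26 mitosis genes 23 were negative, with medians of 0.10 and -0.11 and 0 at an unadjusted p under 0.05. Atoh1, the factor that sets secretory fate, was at 0.53 ± 0.20 (adjusted p = 0.770).

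Markers of other crypt cells were uneven between libraries and none but Fabp1 was called by edgeR or DESeq2. Goblet markers had a median of 0.05 over 20 genes and tuft markers 0.25 over 7. Paneth markers had a median of -0.56 over 17, with summed levels from 285 to 3150 CPM in wild type and from 319 to 2034 CPM in deficient cells. Enteroendocrine markers had a median of -0.98 over 8, with sums from 7.91 to 59.0 CPM and from 8.204 to 55.8 CPM. Both ranges overlapped between genotypes.

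MHC class II genes, of antigen presentation, were lower in value without a call by edgeR or DESeq2, and of 7 tested 0 had an unadjusted p under 0.05. All 7 were negative, with a median of -0.47. Summed over the list, wild-type libraries held 2874 to 3073 CPM, and the deficient range of 1246 to 3513 CPM overlapped it. Cd74, the chain that escorts class II molecules, stood at 1851, 1761, 1781 and 1869 CPM in wild type and at 1270.0, 2031, 808 and 1032 CPM in deficient cells (-0.50 ± 0.35, adjusted p = 0.9998). Deficient library b lay above all wild-type libraries and the other deficient ones lay below. Ciita, their activator, was at -0.44 ± 0.29. Beside these values, wild-type libraries held 11.8 to 15.9 CPM over 18 white blood cell markers, and deficient libraries 6.54 to 11.2 CPM, without overlap. Most of this was Itgam, at 11.7 to 14.1 CPM and 5.72 to 10.6 CPM. Of the 18 markers 4 were at 0 in all 8 libraries, Ptprc did not exceed 0.199 CPM, and the part of such cells in the class II values was not tested. Nos2, the inducible nitric oxide synthase of epithelial defence, averaged 14.9 ± 6.68 and 5.27 ± 2.84 CPM (SD, n = 4 and 4), with overlapping libraries (-1.49 ± 0.35 SE, edgeR adjusted p = 0.152), and was called by DESeq2.

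The same deletion was then examined in the high-fat stem cell libraries, and in the progenitors of the control diet, which may come from the same mice as the stem cells. The high-fat libraries entered the fit behind the 30 calls, and so its filter, scaling and spread. In a fit without them 36 genes were called, Fabp1, Mgll, Vwa8 and Tm4sf4 were not among them, and Gm12350 was not tested. Apart from Cpt1a, 28 of the 29 called genes had the same direction in high-fat stem cells and 22 were called there in that direction, where 0.443% of all tested genes were called. In control-diet progenitors, fitted with all 32 libraries, 28 of the 29 had the same direction and 20 were called, beside 0.336% of all tested genes. No gene was called in the opposite direction. The genes with another sign were Bsdc1 in high-fat stem cells (0.10) and Gm12350 in progenitors (-0.05). Gm12350 counted as the same direction in high-fat stem cells, though at 0.18 ± 0.57 it was near 0. The share of all tested genes with the same direction is not given here, so the counts by direction have no background beside them.

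**Figure D4:**
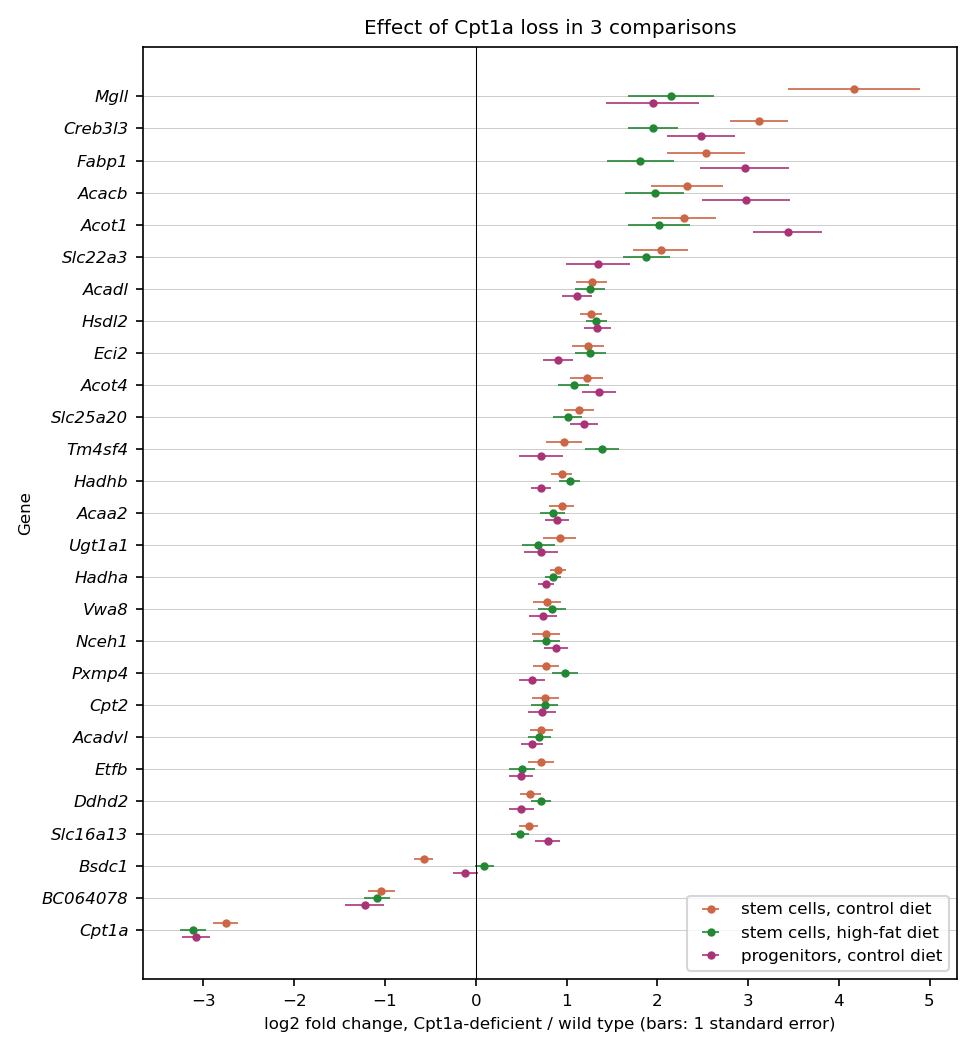
Log2 fold change of Cpt1a-deficient over wild-type cells with 1 standard error for 27 of the 30 called genes (2 pseudogenes of low counts and 1 other gene are left out), in control-diet stem cells, high-fat stem cells and control-diet progenitors. The values of Acadl, Hsdl2 and Hadha lie close together in the 3 comparisons, and Bsdc1 lies near 0 in both of the others.

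The size of the effect was close in the 3 comparisons for some oxidation genes and less close for others. Acadl was at 1.28 ± 0.17 in control-diet stem cells, 1.26 ± 0.17 in high-fat stem cells and 1.12 ± 0.16 in progenitors. Hadha was at 0.91 ± 0.09, 0.85 ± 0.09 and 0.77 ± 0.09 in the same order, and Slc25a20 at 1.14 ± 0.16, 1.01 ± 0.16 and 1.19 ± 0.16. Eci2 was at 1.23 ± 0.18, 1.26 ± 0.17 and 0.90 ± 0.16. Etfb was at 0.72 ± 0.14, 0.51 ± 0.14 and 0.50 ± 0.13, and it was called only in control-diet stem cells. Mgll spread more, at 4.17 ± 0.73, 2.15 ± 0.48 and 1.95 ± 0.52.

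No gene passed the test of the difference between diets or between stem cells and progenitors. By edgeR 0 of 12409 genes (0.0%) were called for the diets, with 444 at an unadjusted p under 0.05 and none by DESeq2. Between the populations 0 of 13088 (0.0%) were called, with 263 at an unadjusted p under 0.05, while DESeq2 called 2. For Creb3l3 the high-fat effect minus the control-diet effect was -1.17 with a 95% interval of -2.05 to -0.29 (edgeR adjusted p = 0.9991). For Bsdc1 it was 0.67 with a 95% interval of 0.36 to 0.98, also without passing the adjustment (edgeR adjusted p = 0.9991). On simulated data the diet test recovered 55.2% of genes whose effects differed 2-fold, so differences of that size may be missed.

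**Figure D5:**
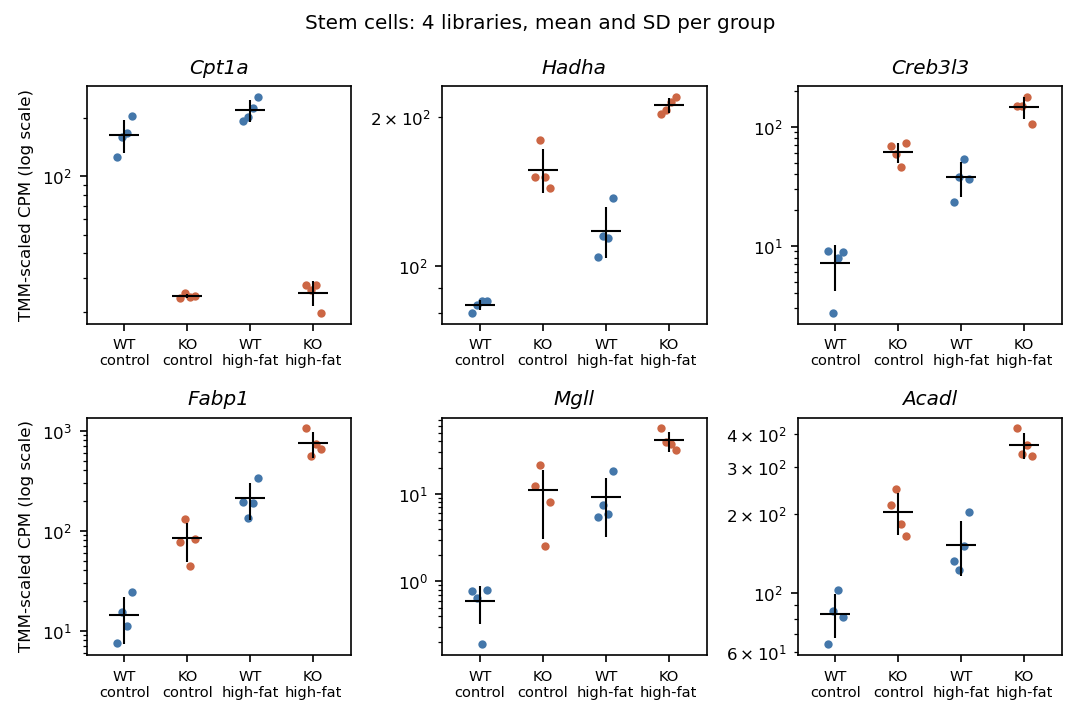
TMM-scaled CPM on log axes for 6 genes in the 4 stem cell groups, with 4 libraries per group (points), the mean and the SD (black). Deficient cells (orange) lie above wild-type cells (blue) on each diet for Hadha, Creb3l3, Fabp1, Mgll and Acadl and below for Cpt1a.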

How the data were processed

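PolyA RNA of 32 sorted libraries was sequenced. The submitters' processing notes name mm10, RSEM 1.3.0, STAR 2.5.3a and SAMtools 1.3. Annotation and strand setting are not given in the sources used here. In the deposited table of expected counts, each value is an estimated read count for 1 of 50686 Ensembl genes, rounded to a whole number: 2831 values of 0 have a TPM above 0. The other deposited table gives log2 of TPM plus 1. IDs that had no symbol took 0.0677% of counts.

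edgeR 4.0.16 in R 4.3.3 fitted the 16 stem cell libraries as 4 groups (TMM, filterByExpr with minimum count 10, robust quasi-likelihood, Benjamini-Hochberg over all genes tested). Progenitors and the difference between populations were fitted with all 32 libraries. Alternatives used DESeq2 1.42.0, limma 3.58.1 on the log2 TPM values, other scalings, filters and sample sets, left-out libraries, the Xist level as a covariate and a block. The block was the 4 runs of 8 consecutive columns, each with 1 library per group. Deviations from the group means correlated at 0.187 to 0.319 between wild-type and deficient libraries of the same run, in all 4 pairs. Between runs they correlated at -0.253 to 0.183. The deviations of 4 libraries sum to 0, so these values are not independent, and whether the runs pair the libraries was not tested. Calls, SEs and intervals come from the fit without the block unless the block is named. An SE is the size of the log2 fold change divided by the root of F. Tested on simulated data of 12409 genes, the comparison recovered 32.8% of 1.5-fold, 73.1% of 2-fold and 92.4% of 4-fold changes, with 4 false among 136 calls.

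Near-identical copies were sought by aligning transcripts (at least 95% identity over 200 bases). Stretches shared with other genes were also found for Acadvl, Slc22a3 and Slc25a20. Every called gene and any tested member of the fat and PPAR lists could be named, and from each other list the 2 genes with the smallest p where none was called. Parents of copies were added after their values were seen. The comparison and the lists were chosen with earlier results of these data known. Values of some genes are not reported here, though they enter the fits and counts.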

Additional observations from a re-analysis of the deposited data

Results flagged for a closer look

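Among the 60 sets of 4 libraries of the 30 called genes, 6 had a library far from the others by Dixon's test, where chance gives about 1 in 20. In deficient cells the lowest library of Hadhb stood at 680 CPM with the next at 786, the highest of Acot4 at 15.6 with the next at 13.2, and the highest of Slc22a3 at 15.1 with the next at 9.32. In wild-type cells the highest library of Acaa2 stood at 382 CPM with the next at 333. The other 2 are the pseudogenes Gm12350, at 0.579 CPM in 1 wild-type library, and Gm6969, at 0.57 CPM in 1 wild-type library, with 0 in the remaining wild-type libraries of each. In all 6 cases the genotypes did not overlap.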

How the results depend on the processing

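The count of 30 called genes became 60 with DESeq2 (46 higher, 14 lower) and ran from 14 to 33 without single libraries. It was 24 (20 higher, 4 lower) with the column runs as a replicate block, 25 with limma on the log2 TPM values and 36 with the 8 libraries alone. In all 18 fits 12 genes were called. The block ended the calls of Acot1, Pxmp4, Mgll, Fabp1, Cpt2, Ugt1a1 and Tm4sf4, added Clca4b and changed no other call. No called gene changed direction. Between stem cells and progenitors DESeq2 called 2 genes where edgeR called 0. The difference between diets had 0 calls in every fit, the block included.

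DESeq2 also called Pcx, Oxct1, Retsat, Abcd3, Pdk4, Acot2, Crot, Nos2, Ech1 and Pmaip1. Some genes near 0 changed sign, and the cause was not tested. Without single libraries the log2 fold change ran from -0.25 to 0.086 for Slc22a5, -0.060 to 0.052 for Acads, -0.047 to 0.075 for Ehhadh, -0.30 to 0.063 for Ppard, -0.041 to 0.091 for Acadm, -0.13 to 0.13 for Pparg and -0.13 to 0.0015 for Cox7a2l. Acads was at 0.0015 without a filter, 0.00642 with the Xist level and 0.011 with all 32 libraries, where Ehhadh was at 0.0027. Pparg was at -0.012 with upper-quartile scaling and -0.00392 with the 8 libraries alone.

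At this depth about 1.5-fold changes are mostly missed, so a gene without a call is not shown to be unchanged. Genes under 1 CPM rest on few counts.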
